A study of Mus musculus with 15 samples.

Results

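The cytochrome P450 genes of the mouse were taken as every gene of the deposited gene table whose symbol begins with Cyp, a family number and a subfamily letter. The rule found 101 genes (115 transcript rows) among 22035 genes. Of these, 80 belonged to families Cyp2 (51 genes), Cyp3 (9 genes) and Cyp4 (20 genes), and 21 belonged to other families. By subfamily the genes of these 3 families were put into 7 groups, most of whose members lie together in the genome, and 6 lone members. H3K4me3 was listed for 95 of the 101 genes. Of 98085 randomly placed bins of 2 kb, 96 touched a P450 gene body. These bins covered 55 of the genes, so 46 genes had no bin and no H3K9me3 value.

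All libraries came from 1 cell line, male TT2 mouse embryonic stem cells of wildtype genotype from a C57BL/6 x CBA cross, with no treatment named, so every group shares the genotype and groups differ in antibody, assay and cell number. Native ChIP-seq, which immunoprecipitates nucleosomes without crosslinking, was run on cells sorted straight into a nuclear isolation buffer. For H3K9me3, a mark of heterochromatin, there was 1 library each from 1000000, 100000 and 10000 cells, and the smallest input of 1000 cells was run 3 times, giving libraries a, b and c. H3K27me3, the mark of Polycomb repression, was profiled once in 100000, 10000 and 1000 cells. H3K4me3, a mark of active promoters, was profiled once in 100000, 10000 and 5000 cells. Histone H3 whatever its modification (panH3) was profiled in 2 libraries of 1000 cells (a and b), and RNA in 1 library of 1000 cells. The study set out to profile histone marks from very few cells. The labels leave unsaid if libraries made from the same number of cells stem from separate cultures. The p-values therefore reflect library-to-library spread alone, which may be technical. With 1 library per group, H3K27me3, H3K4me3 and RNA have no replicate check and carry no test. In bulk samples, fewer cells of a type and less RNA or mark per cell cannot be told apart.

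P450 enzymes are heme proteins that insert an oxygen atom into their substrates, drawing electrons from a reductase in the endoplasmic reticulum or from ferredoxin in mitochondria. Members outside families Cyp2, Cyp3 and Cyp4 are mostly single genes with fixed endogenous substrates such as retinoic acid, cholesterol, steroid hormones and vitamin D. Families Cyp2, Cyp3 and Cyp4 grew by tandem duplication in rodents, lie in long gene clusters, and metabolise drugs, plant compounds and fatty acids mainly in liver, intestine, kidney and lung. Embryonic stem cells are not a site of such metabolism, and the retinoic acid hydroxylases are textbook examples of genes that respond to retinoic acid when these cells differentiate.

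Depth recovered from the steps in the RPKM values (reads scaled to window length and library size) ranged from 13 to 45.5 M reads (M, 1000000) in the bin table. For H3K4me3 it was 16.6 M reads at 100000 cells, 1.07 M reads at 10000 cells and 1.86 M reads at 5000 cells, so 1 read was worth 0.0602, 0.938 and 0.539 RPKM in a start-site window. All 9 markers of embryonic stem cells were at 15.01 RPKM of RNA or more, up to 221.81 RPKM. Among 9 hepatocyte markers Alb, Serpina1a, Fgb and Tat were listed at 0, and 2 were above 1 RPKM, Apoa2 (2.72 RPKM) and Ttpa (2.55 RPKM). Among 9 fibroblast markers Col3a1, Dcn and Lum were listed at 0, and 1 was above 1 RPKM, Thy1 (1.79 RPKM). Of 6 endoderm markers, 1 was above 1 RPKM, at 1.11 RPKM.

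Promoter sequences were found by symbol in RefSeq (build GRCm38.p6) for 73 of the 101 genes, as 300 bases from 250 before to 50 after the start. The 250 bases before the start follow for 4 genes, 5′ to 3′ on the gene's strand, with every CG dinucleotide in capitals. Cyp26a1, a retinoic acid hydroxylase (chr19:37697558-37697807, plus strand), had the highest start-site H3K27me3 of all P450 genes. Cyp20a1, an enzyme of unknown substrate (chr1:60343050-60343299, plus strand), had the highest RNA, and the highest H3K4me3 at 100000 cells, among those with a listed sequence. Cyp2c66 (chr19:39113648-39113897, plus strand) and Cyp2c67 (chr19:39649043-39649292, minus strand) stand for the Cyp2c cluster, the group with the largest number of gene-body bins higher in H3K9me3 and also with the most such bins tested.
Cyp26a1: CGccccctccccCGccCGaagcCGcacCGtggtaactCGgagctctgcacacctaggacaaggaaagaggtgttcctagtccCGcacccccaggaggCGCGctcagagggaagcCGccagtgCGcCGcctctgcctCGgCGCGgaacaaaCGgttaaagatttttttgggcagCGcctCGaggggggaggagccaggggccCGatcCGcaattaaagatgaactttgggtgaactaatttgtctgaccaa
Cyp20a1: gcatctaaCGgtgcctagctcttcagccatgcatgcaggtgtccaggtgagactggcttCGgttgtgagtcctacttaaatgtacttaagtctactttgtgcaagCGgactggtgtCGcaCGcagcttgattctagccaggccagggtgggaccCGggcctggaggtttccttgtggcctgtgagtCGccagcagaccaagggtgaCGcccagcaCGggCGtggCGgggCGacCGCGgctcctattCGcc
Cyp2c66: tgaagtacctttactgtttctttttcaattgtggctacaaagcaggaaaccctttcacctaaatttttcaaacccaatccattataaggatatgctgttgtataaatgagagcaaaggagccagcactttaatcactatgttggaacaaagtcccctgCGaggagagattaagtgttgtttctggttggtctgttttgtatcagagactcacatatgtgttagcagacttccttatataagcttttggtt
Cyp2c67: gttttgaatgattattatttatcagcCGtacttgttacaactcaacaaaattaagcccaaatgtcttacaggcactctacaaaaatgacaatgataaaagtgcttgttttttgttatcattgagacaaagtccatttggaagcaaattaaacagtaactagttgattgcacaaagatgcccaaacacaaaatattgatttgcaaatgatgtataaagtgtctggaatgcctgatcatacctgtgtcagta

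The Cyp26a1 stretch holds 20 CG dinucleotides and the Cyp20a1 stretch 15, against 1 each in Cyp2c66 and Cyp2c67. Over the 300 bases the median ratio of observed to expected CG was 0.13 in 60 genes of families Cyp2, Cyp3 and Cyp4, 0.31 in 13 genes of other families and 0.39 in all 27025 genes with a listed promoter. With CG-rich defined as a ratio of at least 0.6 and at least 50% G and C, 2 of the 60 promoters (3.33%) and 4 of the 13 (30.8%) qualified, against 34.3% of all promoters. The 6 CG-rich P450 promoters were those of Cyp1b1, Cyp20a1, Cyp26a1, Cyp46a1, Cyp2r1 and Cyp4v3. Of these genes, Cyp2r1 and Cyp4v3 are members of families 2 and 4 that stand alone in the genome.

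The hexamer TATAAA, on either strand, was present in 31 of 73 P450 promoters (42.5%) against 14.2% of all promoters. It was found in 28 of the 57 promoters with another P450 gene within 100 kb (49.1%) and in 3 of the 16 without one (18.8%). The hexamer AGTTCA followed by itself after any 5 bases, a form of retinoic acid response element, searched on both strands, was present in 1 P450 promoter and in 0.0259% of all promoters. That promoter was Cyp26a1, with the 17 bases AGTTCACCCAAAGTTCA on the opposite strand, 32 to 16 bases before the start, visible above as its reverse complement. The core TNGCGTG, bound by the dioxin receptor and searched on both strands, was present in 1 P450 promoter (Cyp2c68, 1.37% of 73) against 5.12% of all promoters. A match describes letters within these 300 bases, and other parts of the regulatory regions were not analysed here.

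Some copies within the clusters were close in sequence. Of the 60 Cyp2, Cyp3 and Cyp4 promoters, 13 were at least 90% identical to another P450 promoter, and none of the 13 other promoters was. The median identity to the nearest P450 promoter was 66.7% and 53.5%, and Cyp2j and Cyp4f promoters lay near the latter value. Cyp2b9 and Cyp2b13 promoters were 99.3% identical, Cyp2a4 and Cyp2a5 97.7%, and Cyp3a41a and Cyp3a41b 97.0%. How reads that match several copies were treated is not given in the sources used here, so values of such copies are uncertain.

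RNA was low across the P450 genes. Of the 101 genes, 8 (7.92%) reached 1 RPKM over their exons, against 50.2% of all genes, and 49 were listed at 0. The median was 0.01 RPKM against 1.02 RPKM over all genes. Cyp7b1, a hydroxylase of oxysterols, had 13.48 RPKM and Cyp20a1 had 13.43 RPKM. Cyp4f13 had 6.08 RPKM, Cyp4f16 and the pseudogene Cyp4f41-ps 2.37 RPKM each, and Cyp4f17 1.75 RPKM. Cyp4f enzymes hydroxylate leukotrienes and other fatty acids. Cyp39a1, another oxysterol hydroxylase, had 1.62 RPKM and Cyp2s1 1.39 RPKM. The genes next below the threshold were Cyp2r1, which hydroxylates vitamin D in the liver, at 0.80 RPKM and Cyp27a1, a mitochondrial sterol hydroxylase, at 0.76 RPKM. By cluster the counts were uneven. In the Cyp4f group 4 of 9 genes reached 1 RPKM. In the Cyp2a to Cyp2t group Cyp2s1 did so among 13 genes. None did in the Cyp2c (16 genes), Cyp2d (10), Cyp2j (7), Cyp3a (9) or Cyp4a, 4b and 4x (10) groups, whose highest level was 0.34 RPKM in Cyp2j8. Cyp51, whose symbol has no subfamily letter and so lies outside the rule, had 5.44 RPKM.

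**Figure D1:**
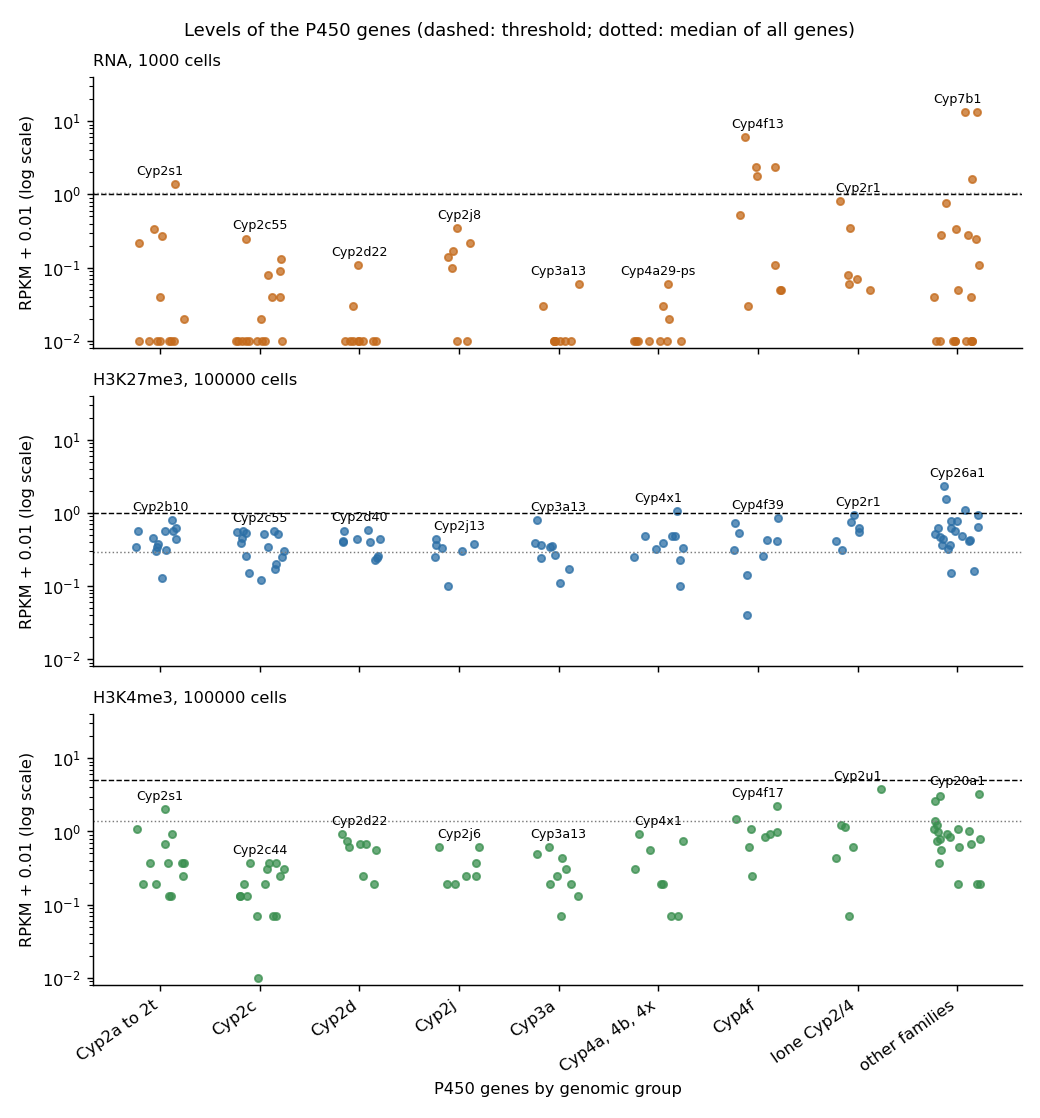
RNA at 1000 cells (top), H3K27me3 at 100000 cells (middle) and H3K4me3 at 100000 cells (bottom) for each P450 gene, in RPKM plus 0.01 on a log axis, by genomic group; points are genes and the highest gene of a group is named. RNA passes the dashed threshold of 1 RPKM in 8 genes, H3K27me3 in 4, and H3K4me3 passes its threshold of 5 RPKM in none; the dotted line is the median of all genes.

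The genes with fixed endogenous substrates are given by role. In sterol and bile acid metabolism Cyp7b1 and Cyp39a1 were above 1 RPKM of RNA, Cyp27a1 had 0.76 RPKM and Cyp46a1, a cholesterol hydroxylase of neurons, 0.27 RPKM. Cyp7a1, the rate-limiting enzyme of bile acid synthesis, and Cyp8b1, which makes cholic acid, were listed at 0. Of the 6 steroid hormone genes Cyp11b1, Cyp11b2, Cyp17a1, Cyp19a1 and Cyp21a1 were listed at 0, and Cyp11a1, which cleaves the cholesterol side chain, had 0.27 RPKM. Of the vitamin D genes, Cyp27b1, which makes the active hormone, had 0.33 RPKM and Cyp24a1, which degrades it, was listed at 0. Retinoic acid hydroxylases were at 0.10 (Cyp26a1), 0.03 (Cyp26b1) and 0.24 RPKM (Cyp26c1). The dioxin-inducible family 1 genes were at 0.04 (Cyp1a1), 0 (Cyp1a2) and 0.03 RPKM (Cyp1b1).

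RNA of the proteins that serve these enzymes was present. All 10 measured electron donors and partners were above 1 RPKM, led by Cyb5b (38.54 RPKM), Cyb5 (34.93 RPKM) and Cyb5r1 (24.17 RPKM), which belong to the cytochrome b5 system. Por, the reductase that supplies microsomal P450 enzymes, had 4.96 RPKM. Among 26 regulators 11 were above 1 RPKM, a share near the 50.2% of all genes, led by Nr5a2 (61.35 RPKM), Rarg (23.38 RPKM) and Arnt (9.68 RPKM). The receptors that induce drug-metabolising P450 genes were at 0.12 (Nr1i2), 0.42 (Nr1i3) and 0.82 RPKM (Ahr). These receptors and Por were singled out after their values were seen. Of 9 retinoid genes 2 were above 1 RPKM, Crabp1 (8.28 RPKM) and Rdh10 (5.20 RPKM).

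H3K27me3 within 1 kb of the start site was at or above 1 RPKM in few P450 genes, and these were led by the retinoic acid hydroxylases. At 100000 cells 4 of 101 genes (3.96%) reached 1 RPKM, against 9.55% of all genes. Cyp26a1 had 2.34 RPKM at 100000 cells, 2.60 at 10000 and 1.58 at 1000. Cyp26c1, its neighbour on chromosome 19, had 1.52, 1.72 and 1.14 RPKM in the same order. These 2 genes were at or above 1 RPKM at every cell number. Cyp46a1 had 1.07, 1.28 and 0.68 RPKM, and Cyp4x1, a gene beside the Cyp4a cluster, had 1.06, 1.03 and 0.72 RPKM. Both fell below the threshold at 1000 cells. Just outside it at 100000 cells were Cyp27b1 (0.94, 1.07 and 0.79 RPKM) and Cyp2r1 (0.94, 0.85 and 0.52 RPKM). At 10000 cells 6 genes passed (11% of all genes did), the additional members being Cyp27a1 at 1.12 RPKM and Cyp27b1. At 1000 cells 2 passed (5.25% of all genes did).

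The level over all P450 genes was not low. Their median H3K27me3 at 100000 cells was 0.40 RPKM against 0.28 RPKM over all genes, and 0.45 RPKM over all genes with RNA under 1 RPKM. The middle 50% of P450 genes lay between 0.29 and 0.55 RPKM, against 0.14 and 0.54 RPKM over all genes. At 1000 cells the medians were 0.40 and 0.31 RPKM. Families Cyp2, Cyp3 and Cyp4 had a median of 0.375 RPKM and the other families 0.50 RPKM at 100000 cells, 0.35 and 0.70 RPKM at 10000 cells, and 0.39 and 0.44 RPKM at 1000 cells. With 1 library per cell number, the difference between the classes was not tested. In the 8 genes with RNA of at least 1 RPKM the median was 0.145 RPKM, with a range from 0.03 (Cyp4f17) to 0.42 RPKM (Cyp7b1 and Cyp4f41-ps), and the other 93 genes had a median of 0.40 RPKM. The 2 sets overlapped in range. Of the 4 genes past 1 RPKM of H3K27me3 the highest RNA was 0.27 RPKM, in Cyp46a1.

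Averaged over the cell numbers, 3 P450 genes reached 1 RPKM, namely Cyp26a1, Cyp26c1 and Cyp46a1. Each had less H3K27me3 in the 1000-cell library than in the 100000-cell library, with a median log2 difference of -0.54. None changed by 2-fold or more, against 12.7% of the 1856 genes at that level 2-fold lower and 0.108% 2-fold higher. The median difference of those 1856 genes was -0.60, so these 3 genes moved about as far as H3K27me3-rich genes in general. Over all 101 P450 genes 46 were lower and 52 higher at 1000 than at 100000 cells, with a median log2 difference of 0.07. Start-site H3K27me3 values were not whole multiples of 1 read, so no counting interval could be given for them.

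The random bins showed H3K27me3 inside gene bodies, mostly outside the start-site windows. Of 96 P450 bins 8 reached 1 RPKM at 100000 cells, against 4.47% of all bins, and 1 RPKM there rests on 39 reads. At 10000 cells 11 did (5.48% of all bins) and at 1000 cells 7 did (2.98%). The 8 bins fell in Cyp26b1, Cyp26a1, Cyp1a1, Cyp4v3, Cyp2b10, Cyp24a1 and Cyp4f39. The highest lay in Cyp26b1 (chr6:84530001-84532000, mm9), about midway along the gene, with 3.25 RPKM at 100000 cells, 3.10 at 10000 and 2.57 at 1000. The start-site window of Cyp26b1 had 0.56, 0.48 and 0.32 RPKM in the same libraries. A bin at the 3′ end of Cyp26a1 (chr19:37774001-37776000) had 3.18, 3.95 and 2.03 RPKM. All 3 retinoic acid hydroxylases therefore carried a window above 1 RPKM at each cell number, although Cyp26b1 did so away from its start. In Cyp1a1 a bin between its 2 listed start sites (chr9:57542001-57544000) had 1.55, 1.76 and 0.84 RPKM. Among families Cyp2, Cyp3 and Cyp4, 4 of 79 bins reached 1 RPKM at 100000 cells, in Cyp4v3 (1.47 RPKM), Cyp2b10 (1.32 and 1.27 RPKM) and Cyp4f39 (1.02 RPKM). Among other families 4 of 17 did.

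**Figure D2:**
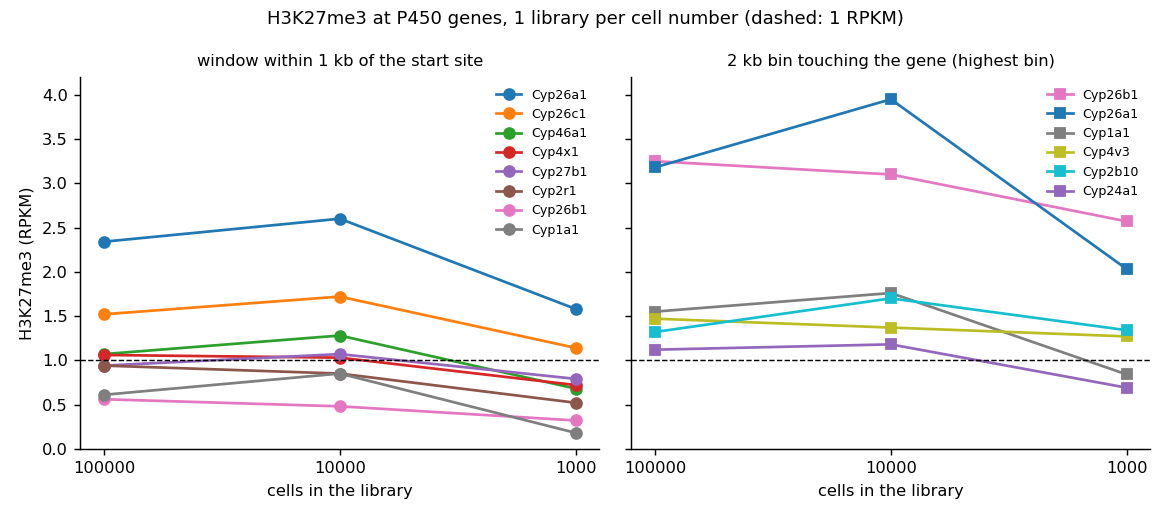
H3K27me3 in RPKM at 100000, 10000 and 1000 cells, 1 library each, in the start-site window of 8 P450 genes (left, circles) and in the highest 2 kb bin touching 6 genes (right, squares). Cyp26a1 stays above the dashed line of 1 RPKM in both panels, and Cyp26b1 is between 2.57 and 3.25 RPKM in its bin but below 1 RPKM at its start.

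H3K4me3 in the 1 kb start-site windows was low at most P450 genes. At 100000 cells 0 of 95 genes reached 5 RPKM, against 21.4% of all genes, and the median was 0.36 RPKM against 1.39 RPKM. The highest was Cyp2u1, a fatty acid hydroxylase gene with no close neighbour in the family, at 3.79 RPKM, from 63 reads (exact Poisson 95% interval 2.92 to 4.85, counting error only). It had 22.5 RPKM at 10000 cells and 4.85 RPKM at 5000 cells, with RNA of 0.34 RPKM. Cyp20a1 had 3.25 RPKM (2.44 to 4.24), 18.75 and 6.46 RPKM, and Cyp27a1 had 3.01 (2.24 to 3.97), 13.13 and 4.85 RPKM. Cyp39a1 followed with 2.59 (1.87 to 3.49), 11.25 and 8.62 RPKM. The intervals of these 4 genes overlapped, so their order at 100000 cells was not resolved. Next came Cyp4f17 (2.23 RPKM), Cyp2s1 (1.99 RPKM), Cyp4f13 (1.45 RPKM) and Cyp46a1 (1.39 RPKM).

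The 7 transcribed P450 genes with a window had H3K4me3 from 1.08 to 3.25 RPKM at 100000 cells with a median of 1.99 RPKM. The 88 others had a median of 0.36 RPKM and a range from 0 to 3.79 RPKM. Over all genes the corresponding medians were 4.58 and 0.60 RPKM. Cyp2c genes were lowest, all 15 between 0 and 0.36 RPKM, and Cyp2c66 had no read at 100000 cells, which allows up to 0.222 RPKM. The median was 0.36 RPKM in families Cyp2, Cyp3 and Cyp4 and 0.84 RPKM in the other families. In the libraries of fewer cells 7 genes (background 46.9%) reached 5 RPKM at 10000 cells, namely Cyp2u1, Cyp20a1, Cyp27a1, Cyp4v3, Cyp39a1, Cyp7b1 and Cyp2s1. At 5000 cells 3 genes (background 37.7%) did, Cyp39a1, Cyp20a1 and Cyp4f13. In these 2 libraries 57 and 42 of the 95 genes had no read.

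Both marks were set against the CG content of the promoter, without a test since each has 1 library per cell number. Where a gene has several listed promoters the first was used, which may lie at another start site than the marks. The 6 CG-rich P450 promoters had H3K4me3 between 1.08 and 3.25 RPKM at 100000 cells with a median of 1.17 RPKM. The 67 others had a median of 0.36 RPKM and a range from 0 to 3.01 RPKM. H3K27me3 had medians of 0.79 and 0.37 RPKM, with ranges from 0.15 to 2.34 and from 0.09 to 1.52 RPKM. The ranges overlapped for both marks. Cyp20a1, whose sequence is printed above, had 3.25 RPKM of H3K4me3 and 0.15 RPKM of H3K27me3. The likewise CG-rich Cyp26a1 had 1.08 and 2.34 RPKM. Cyp2c66 and Cyp2c67, with 1 CG each in the printed stretch, had 0 and 0.06 RPKM of H3K4me3 and 0.54 and 0.11 RPKM of H3K27me3. Cyp27a1 and Cyp26c1 had the highest H3K4me3 and H3K27me3 among promoters that are not CG-rich.

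**Figure D3:**
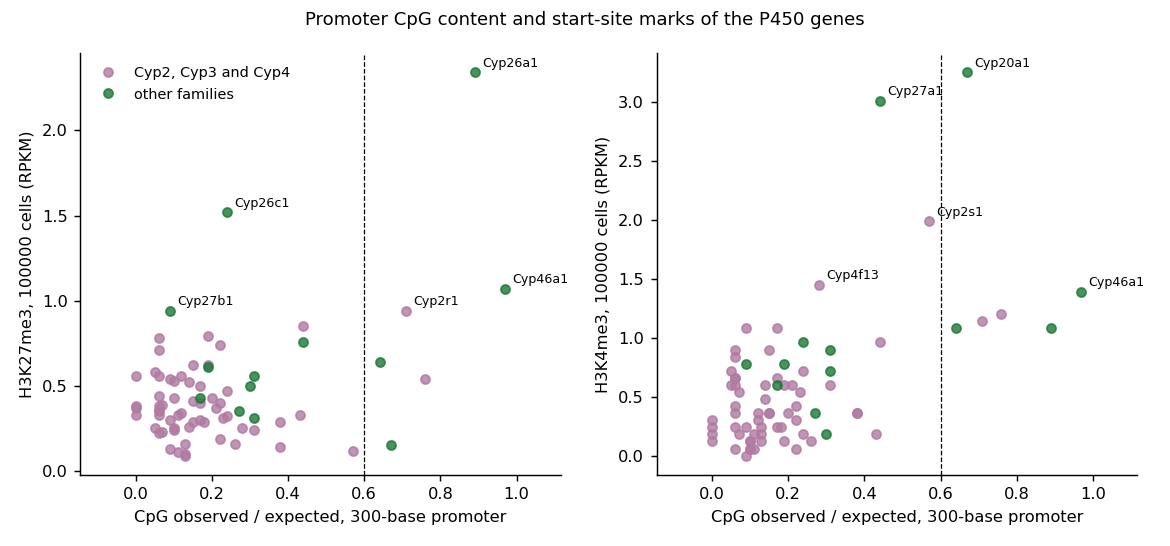
Observed over expected CG of the 300-base RefSeq promoter (horizontal) against H3K27me3 (left) and H3K4me3 (right) at 100000 cells in RPKM, 1 point per P450 gene, coloured by class; the dashed line marks a ratio of 0.6. Cyp26a1 is highest for H3K27me3 and Cyp20a1 for H3K4me3, and most Cyp2, Cyp3 and Cyp4 genes lie at low CG with low values of both marks.

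H3K9me3 was compared with panH3 at 1000 cells, the only groups with more than 1 library. Each library is scaled to its own size, so a higher bin holds a larger share of the H3K9me3 reads than of the panH3 reads. Bins higher in H3K9me3 lay in the Cyp2a to Cyp2t, Cyp2c, Cyp2j, Cyp3a and Cyp4a groups, where most bins did not pass, and most Cyp4f bins were lower. Of 95 tested P450 bins 21 were higher and 11 lower (limma, Benjamini-Hochberg adjusted p below 0.05 over all bins), or 22.1% and 11.6%. Of all bins 15.2% were higher and 24.7% lower, and of bins touching any gene 7.19% and 45.6%. All 21 higher bins were in families Cyp2, Cyp3 and Cyp4, with 9 lower among 78 tested. In the other families 0 of 17 were higher and 2 lower. With each library centred on its median the counts over P450 bins were 29 higher and 8 lower (21.7% and 19.8% of all bins). Centring moved the median difference of all bins from -0.10 to 0.08 (log2) and left 6 lower bins in families Cyp2, Cyp3 and Cyp4 and 2 in the others. The lower calls depended on single libraries, with 7 left over all P450 bins without H3K9me3 library b and 6 without panH3 library b. In the other families 6 bins were lower without H3K9me3 library a.

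As mean levels over their bins, families Cyp2, Cyp3 and Cyp4 had 0.469, 0.498 and 0.483 RPKM of H3K9me3 in libraries a, b and c (0.483 ± 0.0146, SD, n = 3). In panH3 they had 0.392 ± 0.00304 RPKM (SD, n = 2). The H3K9me3 libraries all lay above the panH3 libraries. The other families had 0.372, 0.355 and 0.348 RPKM (0.359 ± 0.0124, n = 3) against 0.459 ± 0.0262 RPKM of panH3 (n = 2), and here all 3 lay below. In bins whose P450 gene had RNA under 1 RPKM, the families Cyp2, Cyp3 and Cyp4 had 21 higher and 4 lower among 73 tested. The other families had 6 such bins, with 0 higher and 0 lower and means of 0.398 RPKM of H3K9me3 and 0.402 RPKM of panH3, so their lower mean was not seen among these bins. Over all bins touching only genes with RNA under 1 RPKM, 11.1% were higher and 17.6% lower. None of the 16 bins of P450 genes with RNA of at least 1 RPKM was higher and 7 were lower, where 4.67% and 63.8% of all bins touching such genes were. The difference between the classes was not itself tested.

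**Figure D4:**
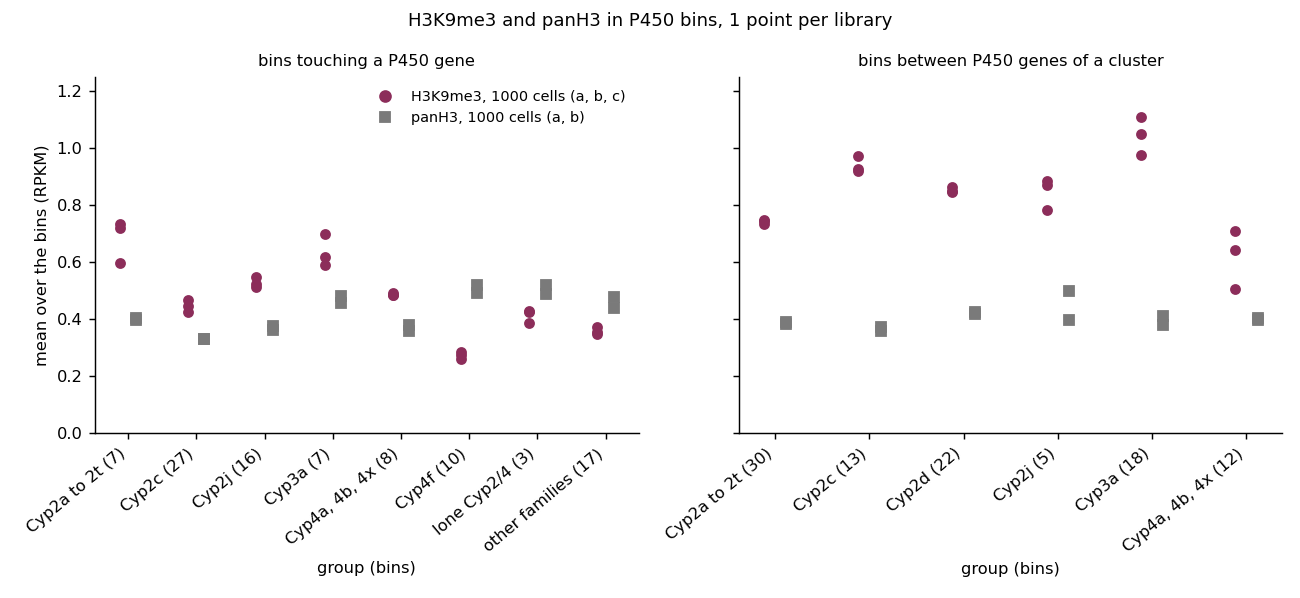
Mean RPKM over the 2 kb bins of each P450 group in each library of 1000 cells, for H3K9me3 (circles, a, b and c) and panH3 (squares, a and b), in bins touching a P450 gene (left) and between P450 genes of a cluster (right), with the number of bins in brackets. Groups with under 3 tested bins are not drawn. H3K9me3 lies above panH3 in 5 cluster groups on the left and in all 6 on the right, and below it in Cyp4f, the lone members and the other families.

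The single bin with the largest difference lay in Cyp2c66 (chr19:39232001-39234000, mm9), a gene of the Cyp2c family of arachidonic acid and drug oxidases. It had 1.23, 1.10 and 1.27 RPKM of H3K9me3 in libraries a, b and c and 0.24 and 0.31 RPKM of panH3. On the log2(RPKM + 0.1) scale the difference was 1.80 ± 0.18 (SE, limma adjusted p = 4.48e-08). The libraries of 1000000, 100000 and 10000 cells had 1.11, 1.18 and 1.31 RPKM in the same bin, so its level was similar at every cell number. Other bins of Cyp2c66 differed from it. One (chr19:39256001-39258000) was higher by 0.94, and 2 others (chr19:39206001-39208000 and chr19:39224001-39226000) held almost no reads in any library, panH3 included.

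In Cyp2b10, which encodes the phenobarbital-inducible enzyme of mouse liver, a bin (chr7:26694001-26696000) had 1.17, 1.19 and 1.42 RPKM against 0.58 and 0.43 RPKM. The difference was 1.17 ± 0.18 (adjusted p = 6.28e-06). A bin covering the 3′ end of Cyp2c67 (chr19:39682001-39684000) had 0.88, 0.79 and 0.72 RPKM against 0.39 and 0.23 RPKM, a difference of 1.15 ± 0.21 (adjusted p = 7.38e-05). Cyp3a41a, of the family that carries most hepatic drug oxidation, had 1.62, 1.49 and 1.09 RPKM against 0.59 and 0.56 RPKM (chr5:146522001-146524000). Its difference was 1.13 ± 0.17 (adjusted p = 9.26e-06), but its near-identical copies make the placement of reads uncertain. Cyp2j8 and Cyp2j12, of the Cyp2j epoxygenases, had bins (chr4:96156001-96158000 and chr4:95776001-95778000) higher by 1.13 ± 0.18 and 1.07 ± 0.19. In each of these bins all 3 H3K9me3 libraries lay above both panH3 libraries.

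The 6 lowest bins included 5 of the Cyp4f family. Cyp4f17 (chr17:32658001-32660000) had 0.09, 0.07 and 0.22 RPKM of H3K9me3 against 0.59 and 0.53 RPKM of panH3, a difference of -1.60 ± 0.28 (limma adjusted p = 4.62e-05). Cyp4f16 (chr17:32682001-32684000) had 0.06, 0.19 and 0.11 RPKM against 0.39 and 0.57 RPKM, a difference of -1.42 ± 0.28. Cyp4f13 (chr17:33072001-33074000) differed by -1.13 ± 0.25, Cyp4f41-ps (chr17:33094001-33096000) by -1.03 ± 0.27 and Cyp4f18 (chr8:74512001-74514000) by -1.01 ± 0.24. Cyp20a1 (chr1:60440001-60442000) had 0.31, 0.20 and 0.24 RPKM against 0.62 and 0.66 RPKM, a difference of -1.09 ± 0.23 (adjusted p = 0.000414). Cyp4f18, on another chromosome than the remaining Cyp4f genes, has RNA of 0.10 RPKM, and the other 5 genes were all transcribed at 1 RPKM or more. The call of Cyp4f18 was lost without panH3 library a and that of Cyp4f41-ps without panH3 library b.

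Counted by group, 3 of 7 bins were higher in the Cyp2a to Cyp2t group, 8 of 26 in Cyp2c (2 lower), 5 of 16 in Cyp2j, 2 of 7 in Cyp3a and 3 of 8 in Cyp4a, 4b and 4x. In Cyp4f 0 of 10 were higher and 7 lower, where 45.6% of all bins touching any gene were lower. The background was 63.8% for genes with RNA of at least 1 RPKM and 17.6% for bins touching only genes below it. Cyp4f bins were of both kinds. Below 1 RPKM of RNA, Cyp4f39 had 1 of 3 bins lower and Cyp4f18 1 of 2. Above it all were lower, 2 in Cyp4f17 and 1 each in Cyp4f13, Cyp4f16 and Cyp4f41-ps. In the Cyp4f group the count of lower bins was 4 without panH3 library b. Without panH3 library a, 1 Cyp4f bin was higher. The mean over the Cyp4f bins was 0.272 ± 0.0126 RPKM of H3K9me3 (SD, n = 3) against 0.505 ± 0.0191 RPKM of panH3 (n = 2). H3K27me3 over the same bins gave a mean of 0.550 RPKM at 1000 cells, above that of H3K9me3. The order was the same over all bins touching a gene, with 0.385 RPKM of H3K27me3 and 0.322 RPKM of H3K9me3. Cyp2d had 1 tested bin inside a gene, in Cyp2d22, with a difference of 0.26 that did not pass.

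Genes with the most bins varied along their length. Cyp7b1, the longest gene of the set and transcribed at 13.48 RPKM, had 7 tested bins and none passed in either direction. Its mean over bins was 0.379, 0.326 and 0.300 RPKM in H3K9me3 libraries a, b and c, against 0.383 and 0.506 RPKM of panH3, and the groups did not overlap. Cyp2c66 had 5 tested bins with 2 higher, Cyp2j8 4 with 2 higher and Cyp2b10 3 with 2 higher. Cyp2c38 had 4 and Cyp2j11 3 with none passing. Cyp2c67 had both of its bins higher. Within the Cyp2c cluster, 1 bin each of Cyp2c39 and Cyp2c55 was lower, by -0.75 and -0.73, and neither passed once the libraries were centred (limma adjusted p = 0.109 and 0.105). These 2 genes were singled out after their values were seen.

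The sequence between the P450 genes of a cluster had a higher mean H3K9me3 than the gene bodies, a difference that was not itself tested. Of 102 tested bins that lay between P450 genes with under 100 kb between neighbours and touched no listed gene, 59 were higher and 3 lower (57.8% and 2.94%). Of all bins touching no gene 20.2% were higher and 11.9% lower. The mean was 0.461 ± 0.0107 RPKM of H3K9me3 over all gene-body bins (SD, n = 3). Over those of P450 genes with another within 100 kb it was 0.489 ± 0.0165 RPKM. Between the genes it was 0.824 ± 0.0156 RPKM (SD, n = 3) against 0.398 ± 0.0046 RPKM of panH3 (n = 2). The mix of groups differed, with 22 tested bins between Cyp2d genes and 1 inside, and 1 between Cyp4f genes and 10 inside. Higher bins numbered 10 of 13 in Cyp2c, 15 of 22 in Cyp2d, 12 of 18 in Cyp3a, 15 of 29 in Cyp2a to Cyp2t, 5 of 12 in Cyp4a, 4b and 4x and 2 of 5 in Cyp2j. Between Cyp2d genes the mean was 0.855 ± 0.00991 RPKM. The largest difference among these bins lay on chromosome 7 in the Cyp2a to Cyp2t group (chr7:27066001-27068000), with 1.28, 1.55 and 1.73 RPKM against 0.35 and 0.23 RPKM, or 2.06 ± 0.19 (limma adjusted p = 7.68e-09). These bins were added to the analysis after the data had been seen. Leaving out 1 library gave 49 to 64 higher and 0 to 4 lower bins, with none lower without panH3 library b and 1 without panH3 library a. Neither repeat content nor mappability was part of the tables, and their part in the result was not tested.

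**Figure D5:**
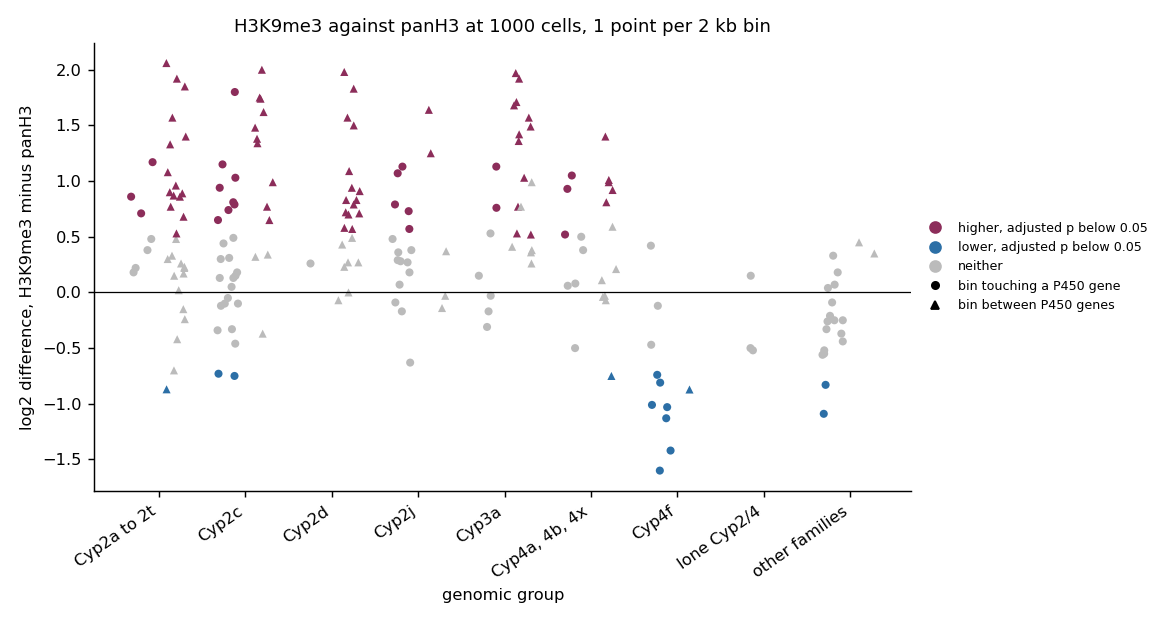
Difference between H3K9me3 and panH3 at 1000 cells on the log2(RPKM + 0.1) scale for each 2 kb bin touching a P450 gene (circles) or lying between P450 genes of a cluster (triangles), by genomic group and coloured by the limma call. The highest circle is Cyp2c66 at 1.80 and the lowest is Cyp4f17 at -1.60; Cyp4f has 7 lower bins and none higher.

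Along the range of cell numbers no P450 bin passed the test for a trend in H3K9me3. In a limma fit of the 6 H3K9me3 libraries on log10 of the cell number, 0 of 96 bins rose and 0 fell (0.0% and 0.00107% of all bins). At an unadjusted p below 0.05, 3 rose (Cyp4f16, Cyp20a1 and Cyp2j9) and 4 fell (Cyp2c69, Cyp4a12b, Cyp2j6 and the bin shared by Cyp3a41a and Cyp3a41b), where 5.53% and 2.0% of all bins did. Weighting by recovered reads gave no rising P450 bin (2.2% of all bins rose) and 1 that fell (0.0876% of all bins), in Cyp2c69 (chr19:39942001-39944000). It had 0.34, 0.35 and 0.75 RPKM at 1000000, 100000 and 10000 cells and 0.83, 0.82 and 0.68 RPKM at 1000 cells. The slope was -0.37 log2 units per 10-fold more cells (limma adjusted p = 0.306 without weights). The mean over bins of families Cyp2, Cyp3 and Cyp4 was 0.453, 0.481 and 0.495 RPKM at 1000000, 100000 and 10000 cells and 0.469 to 0.498 RPKM at 1000 cells. On simulated bins, changes were set as totals between 1000 and 1000000 cells, not per 10-fold. This fit recovered 3% of total changes of 1 log2 unit and 58% of those of 2, so small trends were not detectable here.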

How the data were processed

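ChIP-seq and RNA-seq values of 15 libraries were used as RPKM, which the authors deposited in 3 tables: 2 kb bins, start-site windows of H3K4me3, and a gene table with H3K27me3 within 1 kb of the start and RNA over exons. Per the submitters' processing notes, BWA, SAMtools and build mm9 were used, with versions not given in the sources used here. Gene lengths come from the deposited gene table. Per the bin table's headers 2 columns belong to no sample here and were not used. The unit of the panH3 columns is taken from the values.

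A gene with several rows was represented by the row with the highest mean. Depth was recovered from the RPKM steps, which gave whole reads in the bins and H3K4me3 windows and not in the gene table. H3K9me3 and panH3 were compared with limma 3.58.1 in R 4.3.3 on log2(RPKM + 0.1), with robust moderation and a trend on intensity; tests were two-sided, and p-values were adjusted by Benjamini-Hochberg over all bins that had values to test, at 0.05. The pseudocount understates changes of low bins. A second limma fit took the slope on log10 of cell number. On 93521 simulated bins, 200 of them changed, the comparison found 22% of differences of 1 log2 unit and 97% of 2, with 1 false call. In the data 15.2% of bins were called higher and 24.7% lower. The adjusted threshold was therefore less strict than in the simulation, whose shares do not carry over to this comparison. Other steps used pandas 2.3.3, numpy 2.4.6 and scipy 1.17.1 under Python 3.11.15, with matplotlib 3.10.9 for plots and Biopython 1.88 for alignment. RefSeq promoters were matched by symbol alone, taking the first listed promoter of a gene, and identities come from pairwise alignment.

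Members, gene lists and tests were chosen with earlier results of these data known. Named were the 8 highest genes per measure and all past a threshold, genes of the fixed functional groups, the 6 bins with the largest called difference in each direction, genes with most bins, and up to 3 genes per pathway list. Letters a and b were not taken as pairs in the main fit. The correlation of their differences between H3K9me3 and panH3 was -0.00955. It cannot decide whether libraries were paired, since counting error in single bins can hide a shared origin. Alternatives covered scaling, pseudocount, filters, thresholds, the distance rule, the block, read weights and each library left out. One further gene list is not reported here.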

Additional observations from a re-analysis of the deposited data

How the results depend on the processing

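Of 275 alternatives over 38 results, 251 kept a count within 1.5 times or a value within its direction and side of the threshold, and 22 moved. No direction reversed. Counting bins within 5 kb of a gene body gave 33 higher and 18 lower, with the number tested under this rule not given here. Leaving out 1 library gave 15 to 24 higher and 6 to 15 lower P450 bins, 4 to 9 lower in Cyp2, Cyp3 and Cyp4, 2 to 6 lower in other families, 0 to 4 lower between genes, and in Cyp4f 4 to 7 lower and 0 to 1 higher. The calls of Cyp4f41-ps (log2 -0.93, limma adjusted p = 0.0696 without panH3 b) and Cyp4f18 (-0.75, adjusted p = 0.122 without panH3 a) were lost, and the cause was not tested. Read weights gave 1 falling slope. H3K27me3 was at or above 0.5 RPKM in 33 genes and above 2 RPKM in 1, and 2 passed 1 RPKM in the 1000-cell library. H3K4me3 passed 2.5 RPKM in 4 genes, and 5 RPKM in 7 (10000 cells) and 3 (5000 cells). RNA passed 2 RPKM in 5 genes. The shares of all genes past 0.5 or 2 RPKM of H3K27me3, 2.5 RPKM of H3K4me3 and 2 RPKM of RNA are not given here. Counts at these thresholds therefore do not compare P450 genes with other genes. The RNA median was 0.1 RPKM over genes above 0. Split by distance, it was 0 RPKM in clustered and 0.06 RPKM in lone genes, against 0.005 and 0.03 RPKM by family. With the replicate block, pairing libraries by letter, 19 bins were higher and 11 lower. No call changed among the 6 P450 bins with the largest difference in each direction, or in the largest bin between genes. Calls of other named bins were not followed under the block. Depth limits H3K4me3 below 100000 cells, where 1 read is worth 0.938 or 0.539 RPKM.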

Other observations

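Cyp2b10 held a bin near its 5′ end (chr7:26684001-26686000, mm9) that was high in both repressive marks at 1000 cells. H3K27me3 was 1.32 RPKM at 100000 cells, 1.70 at 10000 and 1.34 at 1000. H3K9me3 at 1000 cells was 0.68, 0.86 and 0.98 RPKM against 0.38 and 0.45 RPKM of panH3, a log2 difference of 0.86 ± 0.20 (SE, limma adjusted p = 0.000866). At 1000000, 100000 and 10000 cells H3K9me3 was 0.87, 0.54 and 0.3 RPKM, so the 10000-cell value lay below both panH3 libraries. Whether both marks lie on the same nucleosomes or cells was not tested. In the bin with the largest H3K9me3 difference of the gene (chr7:26694001-26696000), H3K27me3 was 0.38, 0.72 and 0.73 RPKM.

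Cyp4v3, a fatty acid hydroxylase gene, combined a CG-rich promoter with little RNA (0.07 RPKM). Its H3K4me3 was 1.20 RPKM at 100000 cells, 12.19 at 10000 and 4.31 at 5000, and a bin near its 5′ end (chr8:46416001-46418000) had 1.47 RPKM of H3K27me3 at 100000 cells. The start-site window, which overlaps this bin only in part, had less H3K27me3. It held 0.54 RPKM at 100000 cells, 0.33 at 10000 and 0.69 at 1000.

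Of 9 retinoid genes beside the Cyp26 hydroxylases 2 reached 1 RPKM of start-site H3K27me3 at 100000 cells, where 9.55% of all genes did, and the other 7 lay between 0.29 (Aldh1a1) and 0.87 RPKM (Crabp2). Start-site H3K27me3 at 100000 cells was 2.43 RPKM in Aldh1a2, which makes retinoic acid, and 2.35 RPKM in Crabp1, which binds it. Crabp1 also had 8.28 RPKM of RNA. Cyp51, the sterol demethylase outside the naming rule, had 7.65, 39.38 and 14 RPKM of H3K4me3 at 100000, 10000 and 5000 cells, above every P450 gene counted here at 100000 cells.

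Spearman's rho of start-site H3K27me3 between 100000 and 1000 cells was 0.586 over 101 P450 genes and 0.789 over 22035 genes, across genes of single libraries, which are not independent replicates.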
